A study of Mus musculus with 6 samples.

Results

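The transcriptome described here is that of the wild-type upper first molar of the newborn mouse, taken as the genes with a normalised count of 1000 or more in both Ascl5WT/WT libraries and ranked by the mean of the libraries. The rule kept 1603 of 24972 genes (6.42%). It used 2 of the 6 samples of the study, which compared maxillary first molars at postnatal day 1 between mice with the Ascl5 mutation on both alleles (Ascl5Mut/Mut), on 1 allele (Ascl5Mut/WT) or on neither (Ascl5WT/WT). Only the Ascl5WT/WT samples, which carry no Ascl5 mutation, enter here, and no genotype was compared. The labels give neither strain nor sex, and whether a sample pooled several teeth or animals is not recorded in them, so the spread between replicate 1 and replicate 2 is the only error available and may be technical. With 2 libraries of 1 group there is no test, and each value below is given for both libraries, replicate 1 first.

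At birth a mouse upper first molar is in the bell stage. Its epithelium, derived from oral ectoderm, is folded over a neural crest derived mesenchyme, the dental papilla, and both are wrapped in a dental follicle. The inner epithelium will form ameloblasts, which secrete enamel proteins, the outer papilla cells will form odontoblasts, which secrete dentin, and the follicle gives rise to cementum, ligament and some of the surrounding bone. Signals such as Shh, Wnt, Bmp and Fgf pass between the layers and fix the number and place of the cusps. A whole dissected tooth holds all these layers together with vessels, nerves and whatever bone and soft tissue adhere to it, so in these bulk samples fewer cells of a type and less RNA per cell cannot be told apart.

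The libraries held 12729021 and 12564485 normalised counts. What appears to be 1 read was worth 109 counts in replicate 1 and 120 in replicate 2, which gives an estimated depth of 117013 and 104767 reads assigned to genes. The minimum of 1000 therefore stood for 9.19 and 8.34 reads, and 3 reads for 326 and 360 counts. Counting error alone would allow a gene listed at 0 up to that value. B2m, which nearly every cell uses, was also at 0. So were 8 of 84 genes picked by ribosomal protein names, a set that includes the pseudogene Rps4l. A listed 0 therefore sets no bound on expression here. In each library 67.2% and 68.6% of genes were at 0, and 14647 genes were at 0 in both. The genes of the ranking took 73.5% of the counts of replicate 1 and 71.1% of those of replicate 2. In the ranking, 91.0% of the annotated genes were protein coding, against 84.0% of all annotated genes in the table.

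The highest value of the wild-type molar belonged to Gm11532, a processed transcript on the minus strand of chromosome 11 (GRCm38, chr11:97020508-97026248), which lies on top of Sp6 on the plus strand. Sp6, also called epiprofin, encodes a zinc-finger transcription factor of the dental epithelium that is needed for normal tooth number and enamel. The whole 1128-base coding exon of Sp6 (chr11:97021463-97022590) lies inside 1 exon of Gm11532 (chr11:97021384-97026248). A second pair of this kind is Gm15441, an annotated antisense RNA ranked 8th, and Txnip, which encodes an inhibitor of thioredoxin that also limits glucose uptake. There, 162 of the 250 bases of the first coding exon of Txnip (chr3:96558236-96558485) lie in an exon of Gm15441. The stretches below show what these overlaps look like. Each is the first 60 bases from the start codon of the known gene, followed by the same 60 bases as its partner carries them, 5′ to 3′ on its own strand. Capitals mark the start codon, and in the partner its complement. The first pair is at chr11:97021463-97021522 and the second at chr3:96558236-96558295 of GRCm38, with annotation from GENCODE vM21.
Sp6: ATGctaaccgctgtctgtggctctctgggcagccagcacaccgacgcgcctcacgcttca
Gm11532: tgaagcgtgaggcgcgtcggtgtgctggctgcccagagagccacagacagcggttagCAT
Txnip: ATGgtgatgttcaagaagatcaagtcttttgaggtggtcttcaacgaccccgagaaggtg
Gm15441: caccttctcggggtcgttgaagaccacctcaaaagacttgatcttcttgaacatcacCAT
A fragment of this sequence can be assigned to either gene of a pair, and only the strand recorded for the read separates them. The library kit keeps the strand, but the strand setting used for counting is not given in the sources used here, so reads of a gene and of its opposite-strand partner cannot be told apart. Counting on the strand opposite to the transcripts would touch every value given here, including the zeros of genes that have no partner, and whether it took place was not tested.

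Gm11532 stood at 869884 normalised counts in replicate 1 and 389895 in replicate 2, which was 6.83% and 3.10% of all counts. Sp6 stood at 1525 and 0. Per kilobase of exon the levels were 165001 and 73956 for Gm11532 against 397 and 0 for Sp6. The partner of the transcription factor was thus far above the factor in both libraries, although its own value was lower in replicate 2, with a log2 difference (replicate 2 minus replicate 1) of -1.16. Gm15441 stood at 50480 and 67131 counts, and Txnip at 547 and 1927. Per kilobase these were 30119 and 40054 for Gm15441 against 175 and 617 for Txnip, so Gm15441 was above its partner in both libraries.

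The same arrangement recurred at Msx1 and Peg3, whose antisense partners are in the RefSeq annotation of GRCm38. Msx1 encodes a homeobox factor of the dental mesenchyme that tooth development requires to pass the bud stage. It stood at 654 and 0 counts, while Msx1os, an RNA lying within Msx1 (chr5:37820564-37822751), stood at 81502 and 20145. Peg3, a paternally expressed zinc-finger gene, stood at 5786 and 12247, and Peg3os, which lies within it (chr7:6706760-6707624), at 43929 and 72738. Msx1os ranked 12th and Peg3os 11th. Msx1os was higher in replicate 1, with a log2 difference of -2.02, and Peg3os was higher in replicate 2.

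Behind Gm11532, the ranking was led by further gene models that share exon bases with a gene on the other strand. Gm12992 ranked 2nd, with 153789 and 123154 counts, opposite the splicing factor gene Srsf4, at 1523 and 1416, over 1532 bases. Eml5, which encodes a microtubule-associated protein, stood at 98751 and 87477, opposite Zc3h14 at 1149 and 129. Copg2, a coat protein gene, stood at 52675 and 67446, opposite the imprinted gene Mest at 6990 and 6189. In each of these 3 pairs the ranked gene was above its partner in both libraries, by count and per kilobase.

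Gpr39, a zinc-sensing receptor gene on chromosome 1, stood at 58793 and 58649, opposite Lypd1 at 874 and 604, and its values were among the closest between the libraries. Masp2, a complement protease gene usually known from liver, stood at 54789 and 62479. Its partner Tardbp, which encodes the RNA-binding protein TDP-43, stood at 3051 and 3196. Snx22 stood at 46479 and 48658, opposite the cyclophilin gene Ppib at 885 and 1791. All 3 were close between the libraries while their partners were many times lower.

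Mrps25, which encodes a mitochondrial ribosome subunit, stood at 53700 and 38779, and its partner Nr2c2, an orphan nuclear receptor gene, at 6323 and 3274. Acat3 stood at 49754 and 41971 against 8309 and 5979 for the chaperonin gene Tcp1. Kdm1b, a histone demethylase gene, stood at 53281 and 36203 against 1616 and 1743 for Dek. These 3 were higher in replicate 1. Rufy2 stood at 43412 and 54189 against 993 and 1402 for Hnrnph3, with which it shares 115 bases.

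Other leading models lie opposite a pseudogene or share sequence with one. Gm5148 stood at 107488 and 140669 counts and C330021F23Rik at 45439 and 48320, and each overlaps a pseudogene of the ribosomal protein gene Rps23 over 396 bases. Eyelinc18, a long intergenic RNA at 43406 and 52762, overlaps Gm10260 over 541 bases. Rps3a1, which encodes a protein of the small ribosomal subunit, was the 1 annotated gene of the first 20 with no opposite-strand overlap, at 123122 and 133766. Ribosomal protein genes have many near-identical processed copies, and how reads with several matches were counted is not given, so the values of Rps3a1, Gm5148 and C330021F23Rik are uncertain. Rn45s, the precursor of ribosomal RNA, stood at 47142 and 96163 and is likewise a repeated sequence. Of the 20 highest genes, 17 were in the annotation and 16 of these overlapped a gene on the other strand. For 13 of them that gene was in the table, and per kilobase 12 of the 13 were above it in both libraries, the exception being Dlx1. They were chosen for being high, so the direction itself is no result.

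Ranks by count favour long transcripts. Per kilobase of exon, among the 1574 annotated genes of the ranking, Rps3a1 came first with 126021 and 136915, then Gm11532, Eyelinc18, Gm15441 and Gm5148. Dlx1 moved from rank 13 by count to rank 33 per kilobase. Very long genes moved far down: Ttn, which encodes the muscle spring protein titin, was 144th by count and 1542nd per kilobase, and Dst, which encodes the cytoskeletal linker dystonin, was 97th and 1066th. Kcnq1ot1, a long nuclear RNA, was last of the 1574 per kilobase.

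Over the whole ranking, the exons of 865 of 1574 annotated genes (54.96%) overlapped an exon of a gene on the other strand, against 24.3% of all annotated genes in the table and 15.8% of those at 0 in both libraries. The share was lower farther down the ranking. It was 86.4% in the first 25 genes, 72.2% in the next 75, 71.4% in the next 200, 56.8% in the next 700 and 44.1% in the last 603. Overlapping genes carried 67.4% of the ranking's counts in replicate 1 and 65.3% in replicate 2. Over all genes of the table, overlapping genes carried 59.4% and 57.5% of the counts.

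**Figure D1:**
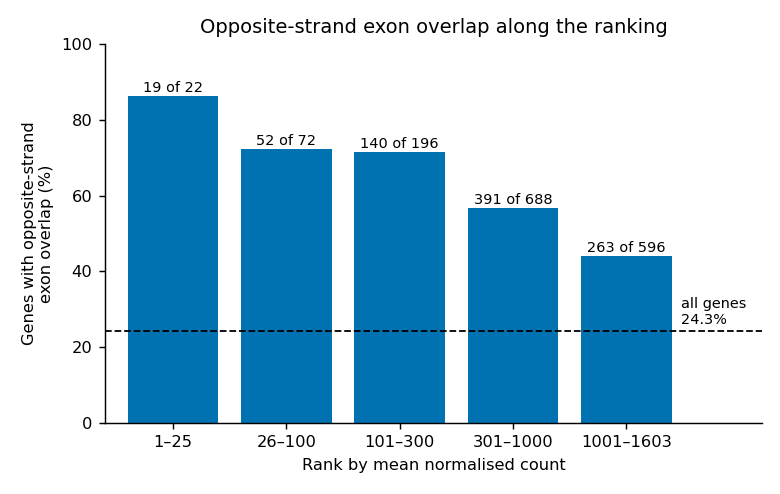
Share of annotated genes whose exons overlap an exon on the other strand (y axis, %), by rank in the wild-type molar (x axis). Numbers over the bars are overlapping genes of annotated genes. Every bar is above the dashed line, the 24.3% of all annotated genes, and the first, at 86.4%, is the highest.

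The genes of the ranking were also longer, with a median of 5182 exon bases against 3197 over all genes, and longer genes overlap others more often. Within each class of exon length the share was still higher in the ranking than among the other genes. It was 46.9% against 14.3% below 2000 bases, 54.1% against 21.6% from 2000 to 4000, 61.6% against 28.0% from 4000 to 8000 and 49.3% against 32.5% from 8000 bases up. By class of transcript, 11.4% of the 651 annotated antisense RNAs of the table were in the ranking, against 6.94% of 20626 protein-coding genes and 3.39% of 1564 other long noncoding RNAs.

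For 701 genes of the ranking the opposite gene was itself in the table. The ranked gene was the higher of the pair in both libraries in 525 cases, the lower in both in 111 and mixed in 65. Because ranked genes were chosen for being high, this split has no meaning of its own. For 266 of the 701, the opposite gene was in the ranking too. Such a pair can be counted from both of its sides. Rnf146 and Echdc1, which share 3129 bases, are an example of partners at like counts, with 23194 and 34754 for Rnf146 and 28810 and 27156 for Echdc1. Dlx1 and its antisense RNA Dlx1as are another, described below.

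The libraries placed the genes in a similar but not the same order. Over the 1603 genes the log2 values had a Pearson r of 0.82 and a Spearman rho of 0.69, given as a description across genes, which are not independent. A gene of the ranking differed between the libraries by a median of 0.48 on the log2 scale, or 1.40-fold, and 293 genes (18.3%) differed by more than 2-fold. Because the rule required 1000 or more in both libraries, it narrows the gap of genes near that minimum. Their agreement is therefore in part a product of the rule. The median was 1.31-fold for the 489 genes with a mean of 1000 to 2000 and 1.53-fold for the 713 from 2000 to 5000. For the 401 genes with a mean of 5000 or more, the median was 1.36-fold, and 52.4% of them lay outside the 95% range that counting error alone allows at the estimated depth. Replicate 1 was the higher for 827 genes and replicate 2 for 776.

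**Figure D2:**
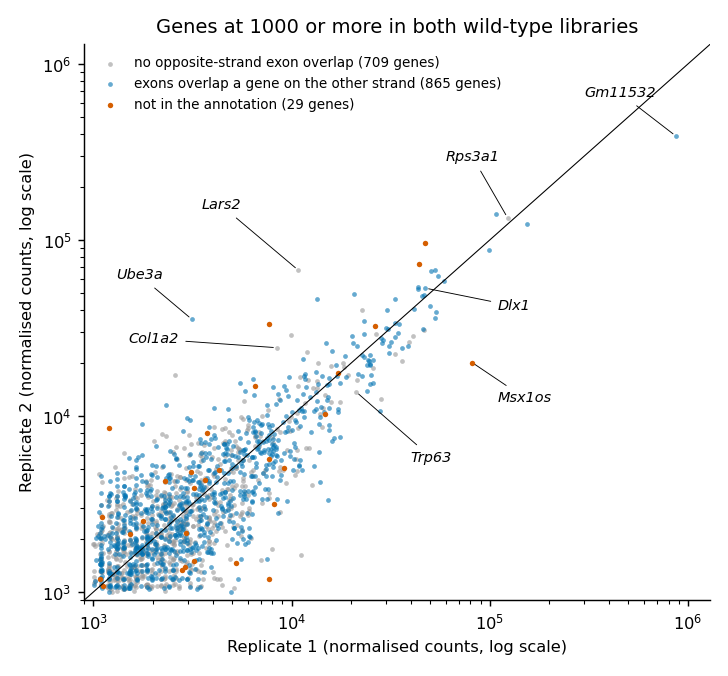
Normalised counts of each of the 1603 genes in replicate 1 (x axis) and replicate 2 (y axis), both on log scales, with the line of equality. Blue points overlap a gene on the other strand, grey points do not, and orange points are not in the annotation. The highest point, Gm11532, lies below the line, at 869884 and 389895, and Lars2 and Ube3a lie far above it.

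Among genes with a mean of 5000 or more, the largest gap was that of Ube3a, an imprinted ubiquitin ligase gene. It stood at 3141 and 35461, a log2 difference of 3.50, while Snhg14, the long RNA on its other strand, stood at 844 and 2914. Lars2, the mitochondrial leucyl-tRNA synthetase gene, stood at 10804 and 67505. The noncoding RNA C030034L19Rik (1758 and 9053) and 9330182L06Rik (2576 and 17104) were also higher in replicate 2, and the antisense RNA 4930565N06Rik (11180 and 1618) was higher in replicate 1. The closest were Ahnak, a giant scaffold protein gene, at 8409 in both libraries, Ciao1 at 5598 and 5609, Gpr39, 9930014A18Rik at 7494 and 7513, and the helicase gene Recql at 15059 and 14975.

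At the edge of the rule, 686 genes reached 1000 in replicate 1 alone and 834 in replicate 2 alone. Among the genes just inside it were Ints5 (1002 and 1877), Dlgap4 (4936 and 1002), Lyrm2 (1002 and 1216) and Neat1 (1005 and 1882). Just outside were Dhx15 (996 and 1233), Htr2b (996 and 2288), Sltm (996 and 1392), Mtfr1 (996 and 1966) and Wls (997 and 1565). These genes differ at the threshold by far less than the value of 1 read. Tsix, the antisense RNA of Xist, shows the other kind of exclusion: it was at 0 in replicate 1 and at 126014 in replicate 2. Xist, with which it shares 1980 bases, was in the ranking at 3060 and 6106. The labels give no sex for either library, and the source of the Tsix gap was not tested.

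Tooth genes were placed in the ranking with 24 lists of markers, read against the 6.42% of all genes that the rule kept and against a median over all genes of 0. Of the genes on the epithelium lists, 12 of 110 (10.9%) were in the ranking, of those on the mesenchyme lists 23 of 108 (21.3%), and of those on the bone and cartilage lists 4 of 51 (7.84%). Lists for other cell types had 2 of 80 (2.50%). On single mesenchyme lists the share ran from 3.85% of transcription factors to 44.4% of fibrillar collagen and matrix genes. On single epithelium lists it ran from 0% to 20%. The share of a class thus depends on which lists it holds. By count, the median rank was 675 for the mesenchyme genes, 1049 for the epithelium genes and 1122 for the bone genes. Per kilobase the order turned around, with medians of 914, 663 and 621, so no layer can be called the higher.

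**Figure D3:**
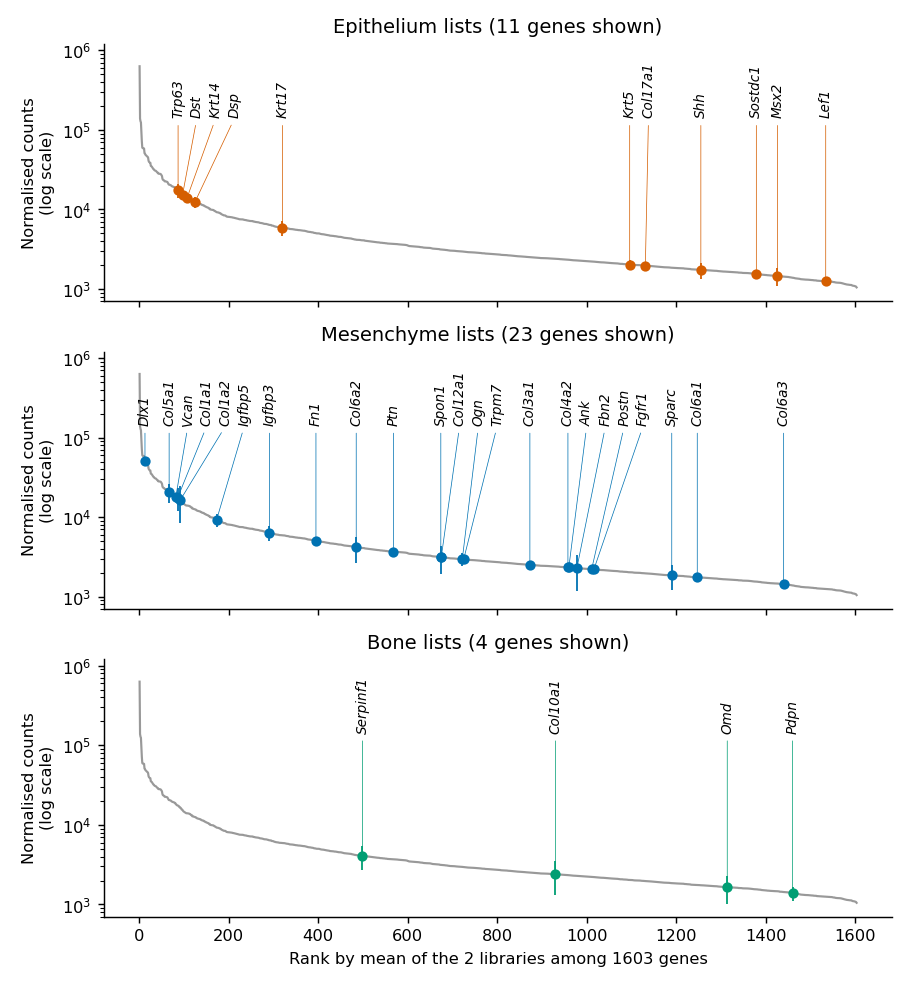
Place of the listed epithelium, mesenchyme and bone genes in the wild-type ranking. The x axis is the rank among 1603 genes, the y axis the normalised count on a log scale, the grey curve the mean of all genes, points the mean of a gene and vertical lines its 2 libraries. Dlx1 is the highest listed gene, at rank 13, and the epithelial genes shown, 11 of the 12, split into 4 near rank 100 and 6 beyond rank 1000, with Krt17 between.

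**Figure D4:**
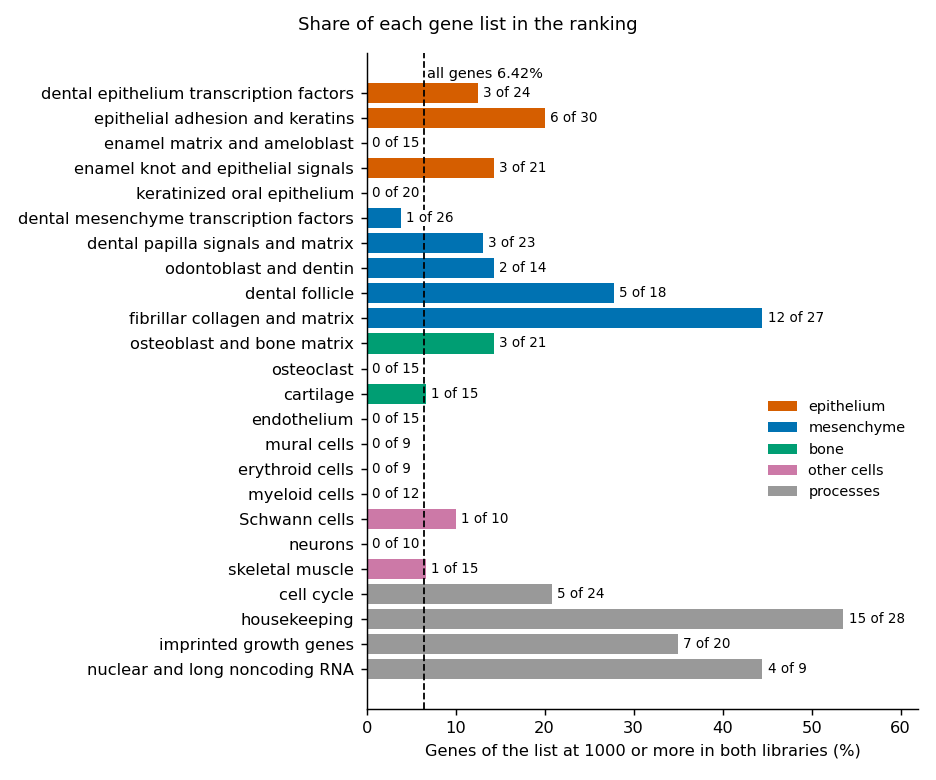
Share of each list's genes in the table that had 1000 or more in both libraries (x axis, %). The dashed line is the 6.42% of all genes. Housekeeping genes, with 15 of 28, are highest, followed by an equal share of fibrillar collagen and matrix genes, with 12 of 27, and nuclear and long noncoding RNAs, with 4 of 9, and 8 lists have none.

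Epithelium was represented by its lineage factor and its basal cytoskeleton. Trp63, which encodes p63, the master regulator of stratified epithelium, stood at 21134 and 13756 counts and ranked 87th. Krt14, a keratin of basal cells, stood at 14740 and 13227, and per kilobase it ranked 42nd. Dsp, which encodes the desmosome protein desmoplakin, stood at 14525 and 10488, and Dst at 15508 and 15214. All 4 were near rank 100 by the mean of the libraries.

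Krt17, a keratin of appendage epithelium, followed at 4638 and 7184. Krt5, the partner of Krt14 in basal cells, was much lower, at 2304 and 1759, and Col17a1, a hemidesmosome collagen gene, stood at 2056 and 1877. Per kilobase, Krt14 had 8385 and 7524 and Krt5 had 1048 and 801, so partners of 1 filament were far apart. Of the 30 adhesion and keratin genes, 6 were in the ranking and 6 were at 0 in both libraries. Over the list the median was 434 counts.

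Of 24 dental epithelium transcription factors, 3 were in the ranking and 8 were at 0 in both libraries. Besides Trp63, these included Msx2, a homeobox factor active in both layers, at 1834 and 1097. All 3 were higher in replicate 1, as were 9 of the 12 epithelium genes. Sp6 stood at 1525 and 0. Foxi3, Isl1 and Gata3 were at 0 in both. Ascl5, the gene that the study mutated, was also at 0 in both libraries. At 247 counts, the median of the list was above that of all genes.

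The signalling genes of the epithelium were near the end of the ranking. Shh, the hedgehog ligand of the enamel knot and inner epithelium, stood at 2146 and 1340. On the other strand it shares 446 bases with the RNA 9530036O11Rik, which was at 0 in both libraries. Sostdc1, a secreted inhibitor of Bmp and Wnt signals around the knot, stood at 1413 and 1684. Lef1, a nuclear mediator of Wnt signals, stood at 1237 and 1270. On the other strand it shares 1208 bases with the gene model Gm43352, which has no value in these data. These 3 of 21 listed genes were the members, and 8 were at 0 in both libraries, among them Fgf3, Fgf4, Fgf9 and Fgf20. The list median was 109 counts, about the value of 1 read in replicate 1.

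The genes of the main enamel proteins were listed at 0 or at about 1 read. None of the 15 enamel matrix and ameloblast genes was in the ranking, and 11 were at 0 in both libraries, including Amelx, Ambn and Mmp20, which encode amelogenin, ameloblastin and the enamel protease. Enam, the enamelin gene, stood at 109 and 0. Of the 20 genes of keratinized oral epithelium, none was in the ranking and 13 were at 0 in both. Krt10 stood at 2143 and 0, and Krt1 at 541 and 118. The median of both lists was 0.

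Dlx1 was the highest gene of the tooth lists, by count and per kilobase. It encodes a homeobox factor that patterns the first branchial arch and, with Dlx2, is needed for upper molars. Its counts were 47224 and 53336, and those of Dlx1as, which overlaps it by 335 bases, were 27823 and 10656. Per kilobase the order was the reverse in replicate 1, with 8752 for Dlx1 and 17069 for Dlx1as, and in replicate 2 the levels were 9884 and 6537. Dlx1 was close between the libraries, whereas Dlx1as was lower in replicate 2, with a log2 difference of -1.38.

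No other of the 26 mesenchyme transcription factors was in the ranking, and 10 were at 0 in both libraries. Dlx2, the neighbour of Dlx1, stood at 427 and 1441, Barx1, a factor of the molar field, at 1029 and 0, and Lhx6 at 538 and 0. Pax9, which the tooth needs beyond the bud stage, was at 0 in both, as were Lhx8, Dlx5 and Pitx1. The list median was 57.2 counts, below the value of 1 read.

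Papilla signals and matrix had 3 of 23 genes in the ranking. Vcan, which encodes the proteoglycan versican, was 82nd with 19267 and 17084. Ptn, which encodes the growth factor pleiotrophin, stood at 4152 and 3244, and Fgfr1, an Fgf receptor gene, at 1981 and 2437. Fgf10, a mesenchymal ligand that keeps dental epithelium growing, missed the ranking by a few counts, at 2183 and 994. Bmp4 and Fgf7 were at 0 in both. Papilla genes had a median of 391 counts.

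The odontoblast list was represented by its less specific members. Trpm7, a magnesium channel gene, stood at 3285 and 2605, and Ank, a pyrophosphate exporter gene, at 2271 and 2394. Dspp, which encodes the main non-collagen protein of dentin, stood at 327 and 0, and Dmp1 was at 0 in both. These dentin genes were thus listed at about 3 reads or at 0. Of the 14 genes in the table, 2 were in the ranking and 5 were at 0 in both, with a list median of 180 counts.

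The dental follicle list had 5 of 18 genes in the ranking. Igfbp5 and Igfbp3, which encode binding proteins of insulin-like growth factors, stood at 7627 and 10872 and at 4981 and 7818. Spon1, which encodes the matrix protein spondin, stood at 1957 and 4331, and Ogn, which encodes a small proteoglycan, at 2401 and 3528. Postn, which encodes periostin of the periodontal ligament, stood at 2406 and 2024. All but Postn were higher in replicate 2. Among the 6 genes at 0 in both libraries were Dcn, Cxcl12 and Pth1r. The list median was 254 counts.

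Fibrillar collagen and matrix genes had the largest share of any tooth list, 12 of 27 (44.4%), and none was at 0 in both libraries. Col5a1, a chain that starts collagen fibrils, led with 14893 and 26129. The chains of type I collagen, the main protein of dentin, bone and connective tissue, followed, with 11973 and 23032 for Col1a1 and 8445 and 24451 for Col1a2. Per kilobase these were 1824 and 3509 for Col1a1 and 680 and 1968 for Col1a2. All 3 fibril chains were higher in replicate 2.

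Fn1, which encodes fibronectin, stood at 5008 and 5059, Col6a2 at 2637 and 5687, and Col12a1 at 3165 and 3120. Col3a1, a chain of soft connective tissue, stood at 2398 and 2632, and per kilobase at 244 and 268, below both type I chains. Lower members were Col4a2, a basement membrane chain (2571 and 2109), Fbn2 (3384 and 1190), Sparc, which encodes osteonectin (1209 and 2493), Col6a1 (1639 and 1875) and Col6a3 (1256 and 1611). In all, 9 of the 12 were higher in replicate 2. The list sum was 65545 in replicate 1 and 118067 in replicate 2, or 1.80 times. Matrix genes as a list had a median of 1433 counts.

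Markers of muscle and red blood cells were also higher in replicate 2. The skeletal muscle list, with 1 of 15 genes in the ranking and 5 at 0 in both, summed to 7059 and 33711, or 4.78 times. Ttn, its 1 ranked gene, stood at 6405 and 16184, and Myh8, the perinatal myosin gene, at 109 and 5694, Tnnc2 at 111 and 4074 and Myh3 at 434 and 3088. The muscle list had a median of 60.3 counts and the erythroid list of 0. The muscle regulators Myod1 and Myog were at 0 in both. The erythroid list, with none of 9 genes in the ranking and 6 at 0 in both, summed to 787 and 23656, or 30.1 times. It consisted almost wholly of Hba-a1, a haemoglobin gene with a near-identical copy, at 453 and 16400, Alas2, the heme synthesis gene of red cells, at 334 and 5026, and Slc4a1 at 0 and 2230. Their part in the higher collagen and follicle values of replicate 2 was not tested.

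**Figure D5:**
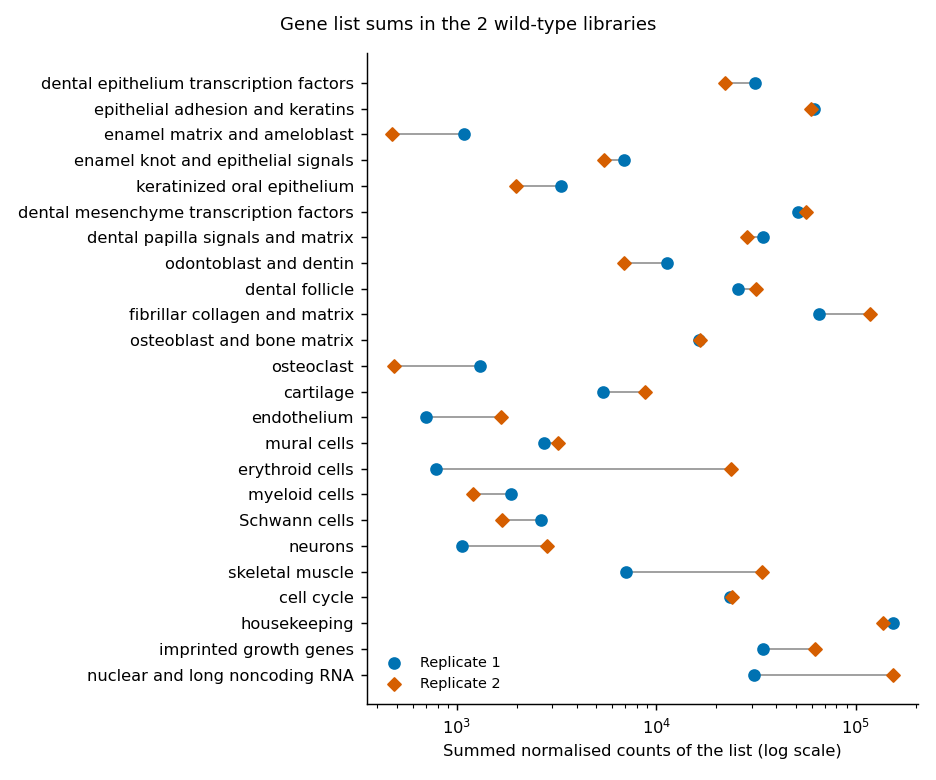
Sum of the normalised counts of each gene list (x axis, log scale) in replicate 1 (blue circles) and replicate 2 (orange diamonds), with grey lines joining them. The libraries are farthest apart for the erythroid list, at 787 and 23656, and close for epithelial adhesion and keratins, at 61721 and 59429. The gap of the nuclear and long noncoding list is that of Tsix, at 0 and 126014.

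Few of the defining genes of bone were in the ranking. Of 21 osteoblast and bone matrix genes, 3 were in the ranking and 7 were at 0 in both libraries. Serpinf1, which encodes a secreted factor of bone mineralization, stood at 5471 and 2718, Omd, which encodes the bone keratan sulfate protein osteomodulin, at 2288 and 1013, and Pdpn, a gene of early osteocytes that epithelium also expresses, at 1116 and 1659. Runx2, the master regulator of osteoblasts and also a factor of dental mesenchyme, stood at 1405 and 540, and Sp7 at 217 and 237.

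The markers of mineralized matrix were uneven between the libraries. Ibsp, the bone sialoprotein gene, stood at 329 and 5488, Spp1 at 0 and 862, Bglap at 0 and 845 and Alpl at 108 and 0. Phospho1, which encodes a phosphatase of matrix vesicles, stood at 761 and 1386. It lies opposite Abi3, a gene usually known from immune cells, which ranked 65th with 25069 and 17217 and shares 1708 bases with it. The sum of the bone matrix list was nearly equal, at 16279 and 16531, and its median was 423 counts.

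None of 15 osteoclast genes was in the ranking and 8 were at 0 in both, so that the list median was 0, with Ctsk, the bone-resorbing protease gene, at 109 and 120, Acp5 at 213 and 0 and Mmp9 at 109 and 0. Of 15 cartilage genes, Col10a1, a collagen of hypertrophic cartilage, was in the ranking at 1309 and 3492, and Col2a1, the main cartilage collagen, stood at 0 and 1732. Col10a1 shares exon bases with Nt5dc1 on the other strand. The cartilage list median was 230 counts.

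Lists of other cell types had few genes in the ranking, and many of their genes were listed at 0, which does not show that these cells were absent. None of 15 endothelial genes, 9 mural genes, 12 myeloid genes or 10 neuronal genes was in the ranking. Pecam1 and Acta2 were at 0 in both libraries, and Ptprc, the marker of all white blood cells, stood at 1754 and 0. S100b, which encodes a calcium-binding protein of glia, was the 1 Schwann cell gene of 10 in the ranking, at 2094 and 1572. The glial marker Mbp was at 0 in both. The list medians were 298 counts for mural cells, 30.0 for neurons and 0 for the endothelial, myeloid and Schwann cell lists.

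Some list genes lay opposite a gene of the ranking. Of 429 list genes, 71 were in the ranking and 14 lay opposite a gene of it. The same share over all genes was not counted, so the 14 are only a description. Of these 14, 8 were not in the ranking themselves. They were Sp6, Msx1, Phospho1 and Tsix, described above, with Dsg2, Itgb4, Esrp2 and Col4a1. Dsg2, a desmosomal cadherin gene, stood at 327 and 719, opposite Gm16090 at 4081 and 11122. Itgb4, the hemidesmosome integrin gene, stood at 974 and 462, opposite B230344G16Rik at 3192 and 4328. Among the ranked ones, Ccnd1, which encodes cyclin D1, stood at 10270 and 7039, opposite Oraov1 at 46087 and 31095, over 1100 bases.

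On the lists of general cell processes, 30 of 80 genes (37.5%) were in the ranking. Of 28 housekeeping genes, 15 were in it, led by the chaperone gene Hsp90ab1 (46449 and 30996), the nucleolar gene Npm1 (26789 and 29276), the elongation factor gene Eef2 (13516 and 14377), Ptma (11690 and 11903), the mesenchymal filament gene Vim (9492 and 6430) and Actb (8068 and 7054). B2m was at 0 in both libraries and Gapdh stood at 2431 and 3285. Housekeeping genes had a median of 1532 counts. None of these 6 leading genes overlaps a gene on the other strand in the annotation.

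Of 84 genes picked by the names of cytosolic ribosomal proteins, 35 (41.7%) were in the ranking. Among the 35 was Rps4l, annotated as a processed pseudogene. Of the 84, 8 were at 0 in both libraries and 18 were at 0 in at least 1. After Rps3a1 the highest were Rps23 (22690 and 39808), Rpl23a (18642 and 21890) and Rpl37 (9964 and 28960). The lowest of them in the ranking was Rpl22, at 1197 and 1192. The median over the family was 1278 counts. Processed copies make the single values uncertain.

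Cell cycle genes had 5 of 24 in the ranking. After Ccnd1 came Ccna2, the cyclin A2 gene, at 3568 and 2784, the proliferation marker Mki67 at 1644 and 2284, the kinetochore gene Cenpf at 1089 and 2182, and the topoisomerase gene Top2a at 1318 and 1220. Cdk1 stood at 0 and 970 and Pcna at 669 and 2192. The list sum was nearly equal in the libraries, at 23363 and 23978, and its median was 366 counts.

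Imprinted growth genes had 7 of 20 in the ranking, and 6 of the 7 were higher in replicate 2. H19, a maternally expressed RNA, stood at 6495 and 13230, Peg3 at 5786 and 12247, and Grb10, an inhibitor of growth factor receptors, at 3390 and 7027. Mest, at 6990 and 6189, was the exception. Igf2r stood at 4352 and 5363, Kcnq1ot1 at 2407 and 4716 and Gnas at 1960 and 3861. Igf2, the neighbour of H19, stood at 477 and 1315. The list median was 822 counts. The list sum was 34204 in replicate 1 and 62558 in replicate 2, the library with the higher muscle and erythroid sums, and their part in this was not tested.

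Of 9 nuclear and long noncoding RNAs, 4 were in the ranking, with a list median of 1443 counts. They were Malat1, Neat1, Xist and Kcnq1ot1, the last 2 with values given above. Malat1, an abundant RNA of nuclear speckles, was 79th at 24172 and 13956, higher in replicate 1. Neat1, the scaffold of paraspeckles, was at the edge of the rule. Neither of the next 2 genes is on any of the lists. Rtl1, an imprinted protein-coding gene derived from a retrotransposon, ranked 27th at 20703 and 49196, and the antisense RNA A630019I02Rik ranked 39th at 13417 and 46243. The latter shares 2451 bases with Cmya5, a gene of striated muscle, at 0 and 1557, and like the muscle list it was higher in replicate 2.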

How the data were processed

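RNA-seq libraries of total RNA from maxillary first molars were made with the SMARTer Stranded kit and sequenced on a NovaSeq in 1 batch, per the labels' protocols. The authors deposited normalized gene counts, a linear signal, in 2 tables of 24972 genes, normalized separately. The table shared with Ascl5Mut/Mut was used. The submitters' processing notes name mm10 and DESeq2 without versions, and the series' design text an Illumina program for differential expression. No source used here gives the aligner, the annotation or the strand setting.

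Low values lay near multiples of a step taken as 1 read: 91.1% and 88.0% of values up to 5 steps were within 0.1 of a whole number, too few to recover whole reads. Depth is the total divided by the step. Exons were merged per gene in GENCODE vM21 (GRCm38, the same assembly as mm10). Of the genes, 24493 matched by name and 54 by a RefSeq synonym. Genes named are the 20 highest, up to 6 per list with the defining genes of the list, the 5 on each side of the threshold and the 5 most and least different between libraries. Others (Rnf146, Echdc1, Rtl1, A630019I02Rik, Abi3, Tsix and listed genes below the threshold) were chosen after their values were seen. Some genes that this rule names are not reported here. The members and lists were chosen with earlier results of these data known. The fixed alternatives were another minimum, the other table, rescaling, each library alone, the overlap and length scaling. The step and the counting range were tested on simulated data. Python 3.11.15, pandas 2.3.3, numpy 2.4.6 and matplotlib 3.10.9 were used.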

Additional observations from a re-analysis of the deposited data

How the results depend on the processing

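The number of genes in the ranking followed the minimum: 2618 at 500 and 830 at 2000, against 1603 at 1000. It was 738 without genes with opposite-strand exon overlap, and the rule applied to a library alone gave 2289 to 2437. In the table shared with Ascl5Mut/WT it was 1681, and after rescaling each library 1600. The share of genes with opposite-strand overlap was 49.6% at 500, 61.2% at 2000, 48.2% with an overlap of at least 100 bases and 49.1% to 50.6% with a library alone, in each case above the 24.3% of all genes (19.1% at 100 bases). At 2000, 6 epithelium genes and 1 bone gene were in the ranking, at 500 there were 35 mesenchyme and 10 bone genes, and with either library alone 8 bone genes. Per kilobase of exon the median ranks were 662.5 for epithelium, 914 for mesenchyme and 621 for bone, against 1048.5, 675 and 1122 by count. The share of the 10 highest genes was 11.2% and ran from 9.80% to 13.0%, and the median log2 difference between the libraries from 0.41 to 0.57. No paired analysis was possible because a single group was described and no groups were compared. The estimated depth limits what a value of 0 can show, and the 2 libraries limit every level to the spread between them.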
